A study of Mus musculus with 8 samples.

Results

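Skin fibroblasts, the matrix-producing cells of connective tissue, carry a set of contractile genes that are high in cells activated by wounding, stiffness or culture on plastic. The 10 genes described here encode this apparatus: 3 muscle actins (Acta2, Acta1, Actg2), 2 tropomyosins that coat the filament (Tpm1, Tpm2), 2 actin-binding proteins of smooth muscle (Tagln, Cnn1), the filament nucleator Lmod1, and 2 myosin parts (Myl9, Myh11). They were chosen by gene name, and all 10 were found among the 17091 features of the deposited table. All 10 also had at least 10 normalised reads in at least 2 libraries, the filter for testing that 12107 features passed.

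The study sequenced RNA from immortalised skin fibroblasts of mice. Its 8 libraries fall into 4 groups of 2: KO in hypoxia, KO in normoxia, WT in hypoxia and WT in normoxia. KO is the name of the libraries from mir210lox/lox mice and WT that of the libraries from C57BL/6 mice. A lox site is where the Cre recombinase cuts, and the labels name no Cre. Hypoxia was 1% oxygen and normoxia 21% oxygen, each for 24 hours. The labels do not say how many lines or animals stand behind a genotype, so genotype and cell line cannot be told apart. Nor do they say that a group's libraries were separate cultures, so the spread behind each p-value may be technical. Levels are given in the authors' normalised read counts, which are whole numbers with a floor of 1.

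In a contractile fibroblast, alpha smooth muscle actin joins cytoplasmic actin in stress fibres, and phosphorylation of the regulatory myosin light chain starts the pull. Many of these genes are classic targets of serum response factor (SRF), which binds a short A/T-rich element called the CArG box. Its partners, the MRTFs (genes Mkl1 and Mkl2 in these data), are held in the cytoplasm by free actin monomers and released when actin polymerises. TGF-beta and the RhoA kinases feed into the same circuit. A cell with much Acta2 and Tagln but little Myh11 is usually called a myofibroblast, while adult smooth muscle carries Myh11 and the coactivator myocardin.

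Some of the promoters hold the SRF element. RefSeq gives a promoter (GRCm38.p6, 250 bases before to 50 bases after the start) for 7 of the 10 genes. The CArG box, searched on both strands by its name motif, was found in 2 of these 7, Acta1 and Myl9, against 1.63% of all 32851 promoters of that length. A looser CArG box with 1 G or C among the 6 central A/T positions was found in 3 of 7, Acta2, Acta1 and Myl9, against 8.50% of all promoters. The loose form excludes the exact one, and Acta2 held the loose form in 2 places. The 250 bases before the start of these 3 genes are printed 5′ to 3′ on the gene's strand, with exact and loose CArG boxes in capitals.
Acta2, chr19:34255374-34255623, minus strand: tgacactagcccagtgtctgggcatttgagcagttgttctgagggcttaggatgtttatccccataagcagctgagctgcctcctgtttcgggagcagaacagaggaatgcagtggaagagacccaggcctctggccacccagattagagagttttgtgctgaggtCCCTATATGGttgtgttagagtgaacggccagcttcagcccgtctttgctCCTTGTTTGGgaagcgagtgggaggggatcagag
Acta1, chr8:123894776-123895025, minus strand: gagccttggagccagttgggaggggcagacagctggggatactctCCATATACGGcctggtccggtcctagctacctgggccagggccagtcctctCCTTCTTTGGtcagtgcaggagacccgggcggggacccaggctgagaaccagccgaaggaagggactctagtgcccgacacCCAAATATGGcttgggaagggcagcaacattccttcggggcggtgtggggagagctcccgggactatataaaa
Myl9, chr2:156775214-156775463, plus strand: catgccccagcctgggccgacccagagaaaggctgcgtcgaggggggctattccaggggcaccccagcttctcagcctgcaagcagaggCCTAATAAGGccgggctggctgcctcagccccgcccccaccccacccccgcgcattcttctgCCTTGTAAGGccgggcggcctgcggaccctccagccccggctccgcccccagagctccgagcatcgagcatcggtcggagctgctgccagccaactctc

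The exact boxes are CCAAATATGG, whose first base is at -73 from the Acta1 start, and CCTAATAAGG, whose first base is at -161 from the Myl9 start. In Acta2 the loose boxes begin at -84 and -34. A second muscle motif, the TEAD motif CATTCC read on both strands, was in 4 of the 7 promoters (Acta2, Acta1, Lmod1 and Tpm1), against 14.7% of all promoters. The core of the hypoxia response element, ACGTG or GCGTG on both strands, was in 4 of 7 (Acta1, Cnn1, Lmod1 and Tpm1), against 43.8% of all promoters. A match describes letters in a window and is not evidence of binding.

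The microRNA named in the mouse line is miR-210, which the hypoxia-inducible factor HIF switches on. Its mature strands from RefSeq are shown because a deletion would remove their pairing to targets, and the capitals mark the seed, bases 2 to 8.
miR-210-3p: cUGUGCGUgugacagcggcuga
miR-210-5p: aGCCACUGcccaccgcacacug
The longest annotated 3′ UTR of each contractile gene was searched for the match to each seed. The match to the 3p seed, ACGCACA, was found in 1 of 10 genes, against 3.06% of 20888 genes. It lies in Tpm1, at atgaaataaaACGCACAtttaggacat, where the capitals are the match. The match to the 5p seed, CAGTGGC, was found in Lmod1 alone among the 10, at gttgctgggcCAGTGGCactctatggg, against 12.6% of genes. Mir210 itself was listed at the floor of 1 in all 8 libraries, hypoxia included, so its value does not check the genotype labels.

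Some contractile genes were among the most abundant messages in these cells. By mean normalised count Acta2 ranked 8 among the 17091 features, Tpm1 15 and Tagln 24, while Myh11 ranked 8520. The 10 genes together took 0.971% to 1.05% of the library total in KO libraries and 1.23% to 1.60% in WT libraries. These ranges did not overlap, but Acta2, Tpm1 and Tagln (means of 42868, 24231 and 20293) made up most of the sum. Tpm1 was level between genotypes, so the gap mainly restates that of Acta2 and Tagln. Divided by the length of the longest transcript, Acta2 was highest with a mean of 21065 normalised reads per kb over the 8 libraries, Tagln followed with 12723 and Tpm1 with 8384. Each of these 3 stood above the next gene in 8 of 8 libraries. Tpm2 (2050 per kb), Myl9 (1905) and Cnn1 (1599) formed a middle group whose ranges over libraries overlapped. Actg2 (455 per kb) stood above Acta1 (442) in only 4 of 8 libraries, so that pair has no order. Lmod1 (88.2 per kb) and Myh11 (15.4 per kb) closed the list, with Lmod1 above Myh11 in 8 of 8.

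The cell-type markers fit the fibroblast label in part. The fibroblast markers Dcn and Lum reached only 93 and 36, below the pericyte markers Cspg4 and Mcam in every library. Of the 10 fibroblast markers none was at the floor in all 8 libraries, and their summed normalised count was 66921 to 81206 in KO libraries and 68601 to 91568 in WT libraries. Vim, Fn1 and the collagens carry that sum, and 3 of the 10 (Col3a1, Dcn and Lum, named after their values were seen) were lower in KO at an unadjusted p under 0.05 (limma), none past the adjusted threshold. Dcn, the matrix proteoglycan decorin, had 25 and 16 normalised reads in KO hypoxia, 12 and 19 in KO normoxia, 52 and 93 in WT hypoxia and 40 and 62 in WT normoxia. KO and WT did not overlap, as for most of the contractile genes (log2 fold change -1.70 ± 0.31, SE; limma, adjusted p = 0.211). Lum, its relative lumican, averaged 2.75 in KO and 18.3 in WT and was at the floor of 1 in KO normoxia replicate 1 (limma, adjusted p = 0.699). The WT libraries numbered 2 set that WT mean, with 36 in hypoxia and 27 in normoxia. The WT libraries numbered 1 had 6 and 4, next to the highest KO value of 4. The part of these differences in those of the contractile genes was not tested. The 7 smooth muscle markers, 3 of them genes of this report, summed to 34434 to 41448 in KO and 49036 to 64780 in WT. Acta2 and Cnn1 carry that sum. Of the others, Smtn averaged 608 in KO and 535.5 in WT, and Synpo2 reached 22 at most. Myocd, which encodes myocardin and defines adult smooth muscle, was at the floor of 1 in all 8 libraries, and Des, the muscle intermediate filament, reached 7 at most. Skeletal muscle markers, of which 5 of 9 are in the table, summed to 6 to 15 in KO and 8 to 13 in WT, and Myf5 and Myh3 were at the floor throughout. Cardiac markers summed to 33 to 50 in KO and 38 to 56 in WT, with Nkx2-5 and Myh6 at the floor. Keratinocyte markers (48 to 64 in KO, 26 to 50 in WT, Krt5 at the floor), endothelial markers (15 to 31 in KO, 12 to 44 in WT) and leukocyte markers (15 to 29 in KO, 17 to 32 in WT, 3 of 4 in the table) were as low. The summed pericyte markers were 1759 to 2551 in KO and 1260 to 1994 in WT, nearly all from Cspg4 and Mcam, while Kcnj8 and Abcc9 were at the floor. In bulk libraries fewer contractile cells and less contractile RNA per cell cannot be told apart.

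The libraries had an estimated 6.26 M to 11.8 M reads on genes, so that even the lowest Myh11 value rests on about 19 reads. WT hypoxia replicate 2 stood apart on the first component of variation (45.9) and KO normoxia replicate 1 on the second (44.9). In both, as in WT hypoxia replicate 1, short transcripts were relatively high. These are the pair of libraries said below to have stood apart. WT normoxia replicate 2 also lay far out, at -30.6 on the second component and 30.3 on the third. It stays in when that pair is left out.

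The actin genes come first. Acta2 (ENSMUSG00000035783.9, chr19:34241090-34255590 on GRCm38, minus strand) encodes alpha smooth muscle actin, the defining myofibroblast protein. It stood at 37246 and 30992 normalised reads in KO hypoxia and 35819 and 31462 in KO normoxia. In WT hypoxia it stood at 53607 and 50327, and in WT normoxia at 44897 and 58594. All 4 KO libraries were below all 4 WT libraries, with means of 33879.8 ± 3124 in KO and 51856 ± 5751 in WT (SD, n = 4 each). The log2 fold change of KO over WT across both oxygen levels was -0.61 ± 0.22 (SE), with a 95% confidence interval from -1.10 to -0.12, a fold of 0.654. It did not pass the test over all features (limma, adjusted p = 0.699).

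Acta1 (chr8:123891769-123894751, minus strand) encodes the actin of skeletal muscle and Actg2 (chr6:83512905-83536265, minus strand) that of visceral smooth muscle. Acta1 had 648 and 640 reads in KO hypoxia, 401 and 453 in KO normoxia, 833 and 591 in WT hypoxia and 574 and 977 in WT normoxia. Both KO hypoxia libraries lay within the WT range, whereas both KO normoxia libraries lay below it. Actg2 had 554 and 452 in KO hypoxia, 438 and 540 in KO normoxia, 953 and 413 in WT hypoxia and 832 and 665 in WT normoxia. The lowest of the 8 values of Actg2 was a WT library, and the KO and WT ranges overlapped. The KO over WT log2 fold change was -0.47 ± 0.20 for Acta1 and -0.47 ± 0.25 for Actg2 (SE; limma, adjusted p = 0.796 and 0.868). It was -0.28 for Acta1 without WT normoxia replicate 2. For Actg2 it was -0.17 without WT hypoxia replicate 1 and -0.77 without WT hypoxia replicate 2. The muscle actin genes are alike in coding sequence, and reads of the abundant Acta2 may have been counted for Acta1 or Actg2. This was not tested, so their values are uncertain.

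**Figure D1:**
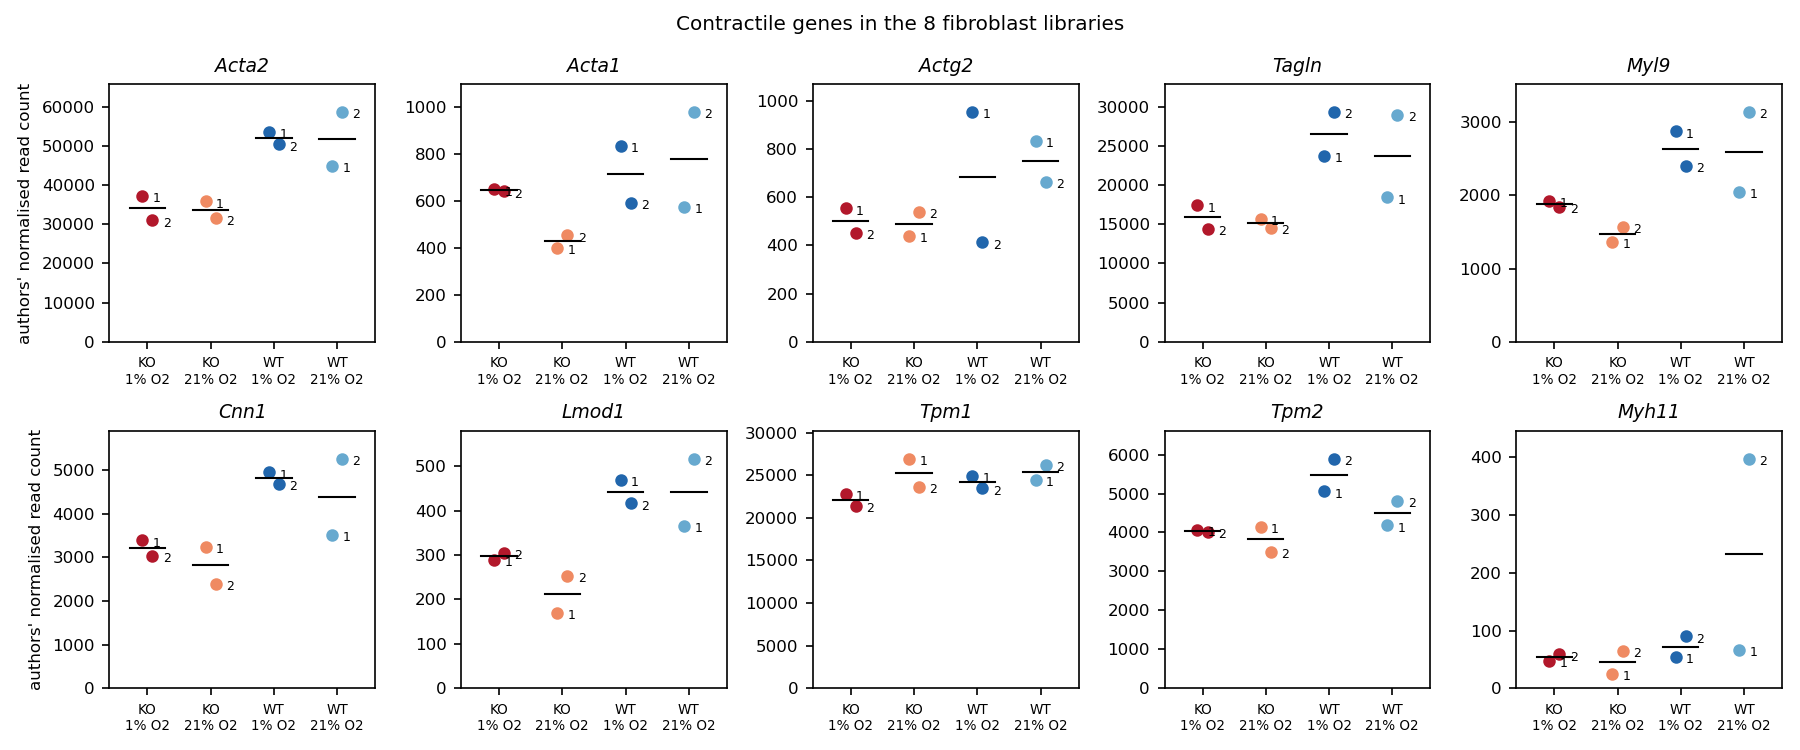
Authors' normalised read count of each contractile gene (vertical axis from 0) in the 8 libraries, grouped as KO then WT and hypoxia (1% O2) then normoxia (21% O2). Points are libraries with their replicate number and black lines are group means. For Acta2, Tagln, Myl9, Cnn1, Lmod1 and Tpm2 all 4 KO points lie below all 4 WT points, Tpm1 is level, and 1 WT normoxia library (398) sets the Myh11 mean.

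Of the actin-binding proteins, Tagln (chr9:45929619-45936058, minus strand), transgelin or SM22, cross-links actin filaments. Tagln had 17402 and 14356 normalised reads in KO hypoxia, 15683 and 14524 in KO normoxia, 23742 and 29299 in WT hypoxia and 18427 and 28914 in WT normoxia. KO and WT did not overlap, and the WT spread (25095.5 ± 5117) was wider than that of KO (15491 ± 1404, SD, n = 4 each). Both WT libraries numbered 2 were the highest. Cnn1 (chr9:22099216-22109630, plus strand), calponin, binds actin and restrains the myosin ATPase. It had 3387 and 3034 in KO hypoxia, 3240 and 2395 in KO normoxia, 4950 and 4678 in WT hypoxia and 3514 and 5264 in WT normoxia, again with no overlap. The highest KO value (3387) and the lowest WT value (3514) lay close together. The log2 fold changes of KO over WT were -0.68 ± 0.22 for Tagln and -0.61 ± 0.19 for Cnn1 (SE; limma, adjusted p = 0.658 and 0.606).

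Lmod1 (chr1:135324807-135368065, plus strand), leiomodin, starts new actin filaments in smooth muscle. Its levels were 289 and 305 in KO hypoxia, 170 and 253 in KO normoxia, 469 and 416 in WT hypoxia and 366 and 517 in WT normoxia. Every KO value was below every WT value. It had the lowest p-value of the 10, with a log2 fold change of -0.82 ± 0.19 (SE), a 95% confidence interval from -1.24 to -0.40 and a fold of 0.567. By p-value it ranked 45 among the 12107 features in this comparison, and its adjusted p was 0.381 (limma).

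The myosin parts differed from each other in level and in spread. Myl9 (chr2:156775420-156781658, plus strand), the regulatory light chain whose phosphorylation starts contraction, had 1929 and 1848 reads in KO hypoxia and 1366 and 1576 in KO normoxia. In WT hypoxia it had 2875 and 2405, and in WT normoxia 2052 and 3140. KO and WT did not overlap, and both KO hypoxia libraries were above both KO normoxia libraries. The KO over WT log2 fold change was -0.63 ± 0.18 (SE), a fold of 0.644 (limma, adjusted p = 0.555).

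Myh11 (chr16:14194535-14291372, minus strand), the smooth muscle myosin heavy chain, had 48 and 59 in KO hypoxia, 25 and 65 in KO normoxia, 54 and 90 in WT hypoxia and 67 and 398 in WT normoxia. The KO range of 25 to 65 overlapped the WT range, and the value of 398 stood far above the other 7 libraries. Its log2 fold change of KO over WT was -1.19 ± 0.50 (SE; limma, adjusted p = 0.789), the lowest of the 10. Leaving out WT normoxia replicate 2 gave -0.55, leaving out its partner, replicate 1, gave -1.83, and leaving out the pair of libraries that stood apart gave -0.67.

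The tropomyosins were the least different. Tpm1 (chr9:67022590-67049406, minus strand) had 22809 and 21401 in KO hypoxia, 26945 and 23650 in KO normoxia, 24934 and 23437 in WT hypoxia and 24441 and 26231 in WT normoxia. The highest of the 8 values was a KO library, and the means were 23701 ± 2353 in KO and 24761 ± 1161 in WT (SD, n = 4 each). The log2 fold change was -0.07 ± 0.19 (SE; limma, adjusted p = 0.986), with a 95% confidence interval from -0.49 to 0.36. Tpm2 (chr4:43514711-43523765, minus strand) had 4064 and 4018 in KO hypoxia, 4143 and 3499 in KO normoxia, 5058 and 5897 in WT hypoxia and 4182 and 4811 in WT normoxia. The genotypes did not overlap, but the highest KO value (4143) and the lowest WT value (4182) were almost equal. Its log2 fold change was -0.34 ± 0.16 (SE; limma, adjusted p = 0.838). Both genes yield muscle and non-muscle isoforms, which a count per gene does not part.

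None of the 10 genes passed the test between KO and WT over both oxygen levels at an adjusted p of 0.05, where 0.0248% of tested features did (3 of 12107). All 10 log2 fold changes were below 0, against 52.2% of tested features, and their median was -0.61, against -0.01 over all tested features. In 6 of 10 (Acta2, Tagln, Cnn1, Myl9, Lmod1 and Tpm2) all 4 KO libraries were below all 4 WT libraries, against 1.70% of tested features, and in 0 of 10 all were above, against 1.95%. At an unadjusted p under 0.05 (limma), 7 of 10 were lower in KO, against 2.68% of tested features. This last count was 2 without WT normoxia replicate 2 and 4 without KO hypoxia replicate 2. Without the pair of libraries that stood apart, the log2 fold change was -0.68 for Acta2, -0.63 for Tagln, -0.74 for Cnn1, -0.65 for Myl9 and -0.72 for Lmod1. That setting keeps WT normoxia replicate 2. Without that library alone, the log2 fold change was -0.52 for Acta2, -0.51 for Tagln, -0.46 for Cnn1, -0.48 for Myl9 and -0.69 for Lmod1. The genes are not independent of each other, and their common direction has no test of its own here.

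**Figure D2:**
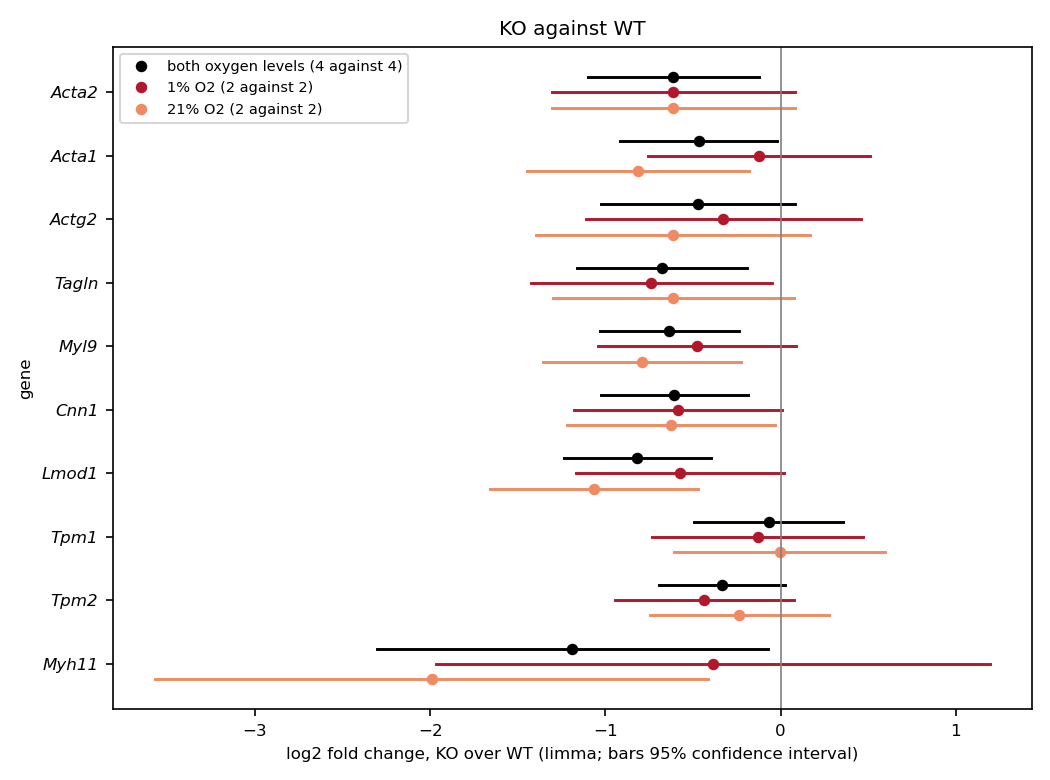
Log2 fold change of KO over WT for each contractile gene (horizontal axis), over both oxygen levels (black), in hypoxia (red) and in normoxia (orange). Bars are 95% confidence intervals from limma, unadjusted for the number of genes. Over both oxygen levels the estimates run from -1.19 (Myh11, with the widest bars) to -0.07 (Tpm1), and all 30 points lie at or left of 0.

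In hypoxia all 10 log2 fold changes of KO over WT were below 0 (51.0% of tested features were), with a median of -0.46 (all features -0.01). The values included -0.74 ± 0.31 for Tagln, -0.61 ± 0.31 for Acta2, -0.48 ± 0.25 for Myl9 and -0.12 ± 0.29 for Acta1 (SE). Both KO libraries were below both WT libraries for 7 of 10, all but Acta1, Actg2 and Myh11, against 24.5% of tested features. In normoxia all 10 were below 0 too (52.3% of tested features), with a median of -0.62 (all features -0.02), and they included -1.06 ± 0.27 for Lmod1, -0.79 ± 0.25 for Myl9, -0.61 ± 0.31 for Acta2 and -0.61 ± 0.31 for Tagln. Both KO libraries were below both WT libraries for 9 of 10, all but Tpm1, against 11.0% of tested features. Acta1 (-0.81 ± 0.29), Myh11 (-1.99 ± 0.71) and Cnn1 (-0.63 ± 0.27) were also below 0 in normoxia. WT normoxia replicate 2 set the size of several normoxia values. Without it they were -0.43 for Acta1, -0.72 for Myh11, -0.29 for Tagln, -0.34 for Cnn1, -0.48 for Myl9 and -0.14 for Tpm2. Tagln was -0.94 without WT normoxia replicate 1, and in hypoxia Acta1 was 0.12 without WT hypoxia replicate 1. No gene of the 10, and 0% of tested features, passed the test in either oxygen level (limma). At an unadjusted p under 0.05, 1 of the 10 was lower in hypoxia (Tagln, 3.06% of features) and 5 in normoxia (Myl9, Cnn1, Acta1, Lmod1 and Myh11, 1.54%).

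No contractile gene changed with oxygen by the test. In KO cells 0 of 10 passed the test between hypoxia and normoxia (0.0578% of tested features passed), and in WT cells 0 of 10 (0.107%). By limma 0 of 10 reached an unadjusted p under 0.05 in KO (3.20% of features did) and 0 of 10 in WT (6.33%). Acta2 differed by 0.02 ± 0.31 on the log2 scale in KO cells (95% confidence interval -0.67 to 0.71) and by 0.02 ± 0.31 in WT cells (-0.67 to 0.71). Tagln differed by 0.07 ± 0.31 in KO and 0.19 ± 0.31 in WT, and Cnn1 by 0.20 ± 0.27 in KO and 0.16 ± 0.27 in WT (SE). As a fold, the interval for Acta2 ran from 0.626 to 1.64 in KO, so the data do not show that Acta2 is insensitive to oxygen. HIF-responsive genes had median log2 changes of 3.03 in KO and 3.20 in WT, and show only that changes of such size could pass. Whether changes as small as those of the contractile genes could pass was not tested. Of 10 such genes, 7 rose in KO and 7 in WT (limma, adjusted p under 0.05), among them Egln3, a HIF prolyl hydroxylase, by 3.86 ± 0.30 in KO and 4.33 ± 0.30 in WT on the log2 scale.

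The widest difference with oxygen was that of Myh11 in WT cells, -1.22 ± 0.71 on the log2 scale (SE; limma), which was 0.057 without WT normoxia replicate 2. In KO cells Acta1 was 0.59 ± 0.29 higher on the log2 scale in KO hypoxia than in KO normoxia, Lmod1 0.52 ± 0.27 and Myl9 0.36 ± 0.25 (SE; limma, adjusted p = 0.916 each). The Lmod1 value was 0.23 without KO normoxia replicate 1, which stood apart, and 0.80 without KO normoxia replicate 2. For these 3 genes both hypoxia libraries lay above both normoxia libraries in KO, against 15.9% of tested features. In WT cells the same genes differed by -0.09 ± 0.29, 0.02 ± 0.27 and 0.05 ± 0.25, and Tpm2 was the 1 gene of the 10 with both hypoxia libraries above both normoxia libraries (18.9% of features). Tpm1 alone had both hypoxia libraries below both normoxia libraries in KO (16.3% of features). The response to hypoxia in KO minus that in WT was 0.69 ± 0.40 for Acta1, 0.49 ± 0.38 for Lmod1 and 1.61 ± 1.01 for Myh11 (SE; limma, adjusted p = 0.857 each). Without WT normoxia replicate 2 these were 0.31, 0.24 and 0.33. Without the pair of libraries that stood apart Acta1 was 0.35 and Lmod1 0.12. None of the 10 passed that test, nor did any tested feature (0%), and at an unadjusted p under 0.05 it was 0 of 10, against 3.14% of features (limma). Over both genotypes 0 of 10 passed between hypoxia and normoxia, against 0.363% of tested features, and 0 of 10 had an unadjusted p under 0.05, against 5.29% (limma).

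**Figure D3:**
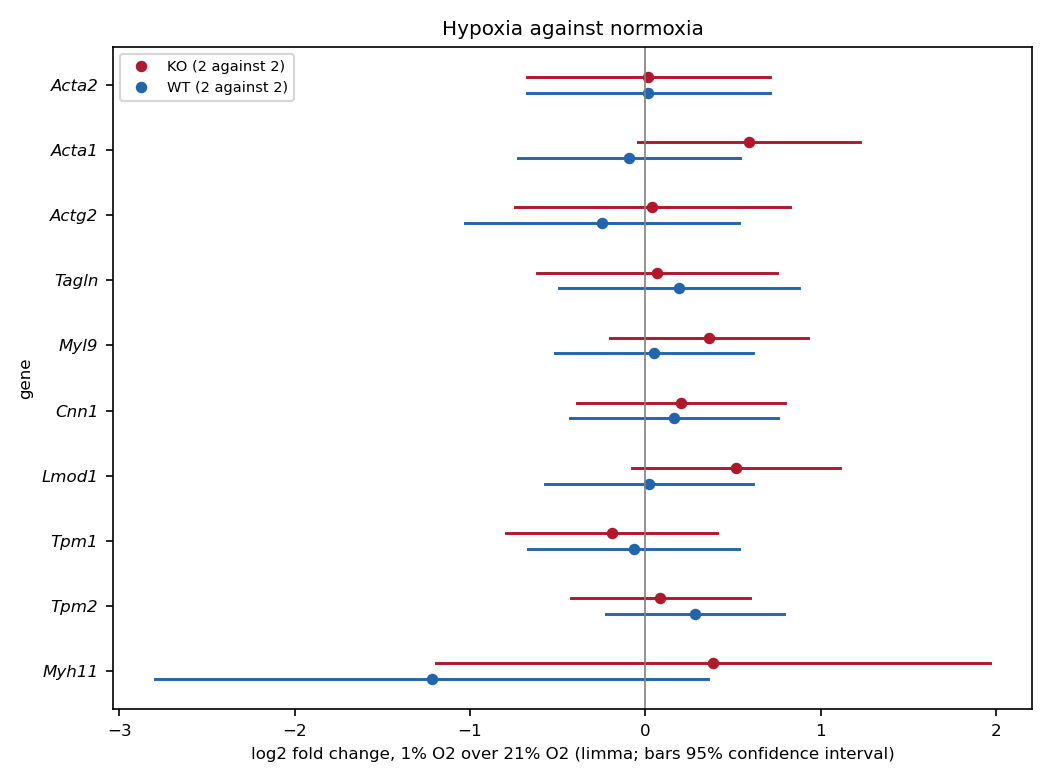
Log2 fold change of hypoxia (1% O2) over normoxia (21% O2) for each contractile gene, in KO cells (red) and WT cells (blue). Bars are 95% confidence intervals from limma. All intervals include 0, and Acta2 is at 0.02 in both genotypes.

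Setting each muscle-type gene against a non-muscle relative in the same library removes what moves both, such as the scaling of a library. These pairs were chosen after the values had been seen. Acta2 over Actb, cytoplasmic beta actin, was 0.749 and 0.692 in KO hypoxia, 0.587 and 0.706 in KO normoxia, 1.06 and 1.19 in WT hypoxia and 0.878 and 1.08 in WT normoxia. The genotypes did not overlap, with means of 0.683 ± 0.069 in KO and 1.05 ± 0.13 in WT (SD, n = 4 each), and Actb itself differed by 0.01 ± 0.23 on the log2 scale (SE; limma, adjusted p = 0.999). The other ratios of these pairs did overlap. Tagln over Tagln2 was 3.47 to 4.30 in KO and 3.64 to 8.06 in WT, where both libraries numbered 2 (8.06 and 7.27) were high and both numbered 1 (4.08 and 3.64) lay within the KO range. Myl9 over Myl12a was 0.315 to 0.483 in KO and 0.376 to 0.739 in WT. Cnn1 over Cnn2 was 0.455 to 0.562 in KO and 0.478 to 0.745 in WT. Tpm1 over Tpm4 was 2.29 to 2.98 in KO and 1.68 to 2.55 in WT, with the KO mean the higher. Tpm2 over Tpm4 had means of 0.442 ± 0.022 in KO and 0.447 ± 0.047 in WT (SD, n = 4 each), so this ratio was level although Tpm2 alone did not overlap. Myh11 over Myh9 was 0.00169 to 0.00471 in KO and 0.00404 to 0.0224 in WT. Whether a ratio overlaps depends on the relative chosen. With Actg1, cytoplasmic gamma actin, in place of Actb, the Acta2 ratio did overlap. Actg1 was low, with 66.5 ± 16.7 normalised reads in KO and 53 ± 13.5 in WT. With Myl12b (204 ± 29.2 in KO, 139 ± 43.8 in WT; SD, n = 4 each) in place of Myl12a, the Myl9 ratio did not overlap.

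**Figure D4:**
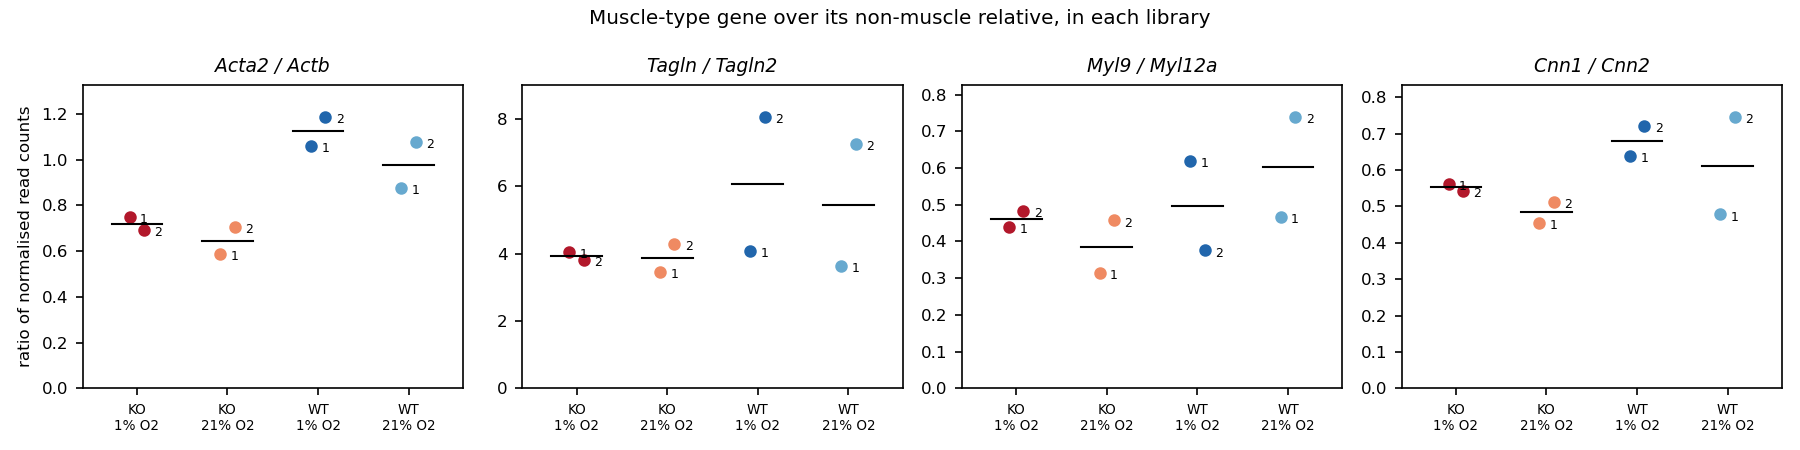
Ratio of normalised read counts of a muscle-type gene to a non-muscle relative (vertical axis from 0) in the 8 libraries, KO left of WT. Points are libraries with their replicate number and black lines group means. Of the 4 ratios drawn, only for Acta2 over Actb do all KO points (up to 0.749) lie below all WT points (from 0.878).

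The genes varied together to unequal degrees. Over the 8 libraries Pearson's r of log2(value + 1) was 0.95 for Acta2 with Cnn1, 0.94 for Acta2 with Tagln and 0.93 for Tagln with Cnn1 (Spearman's rho 0.98, 0.93 and 0.90). Myl9 and Lmod1 had r = 0.97 (rho 0.98), and Myl9 and Acta1 had r = 0.93 (rho 0.81). Tpm1 stood outside, with r from -0.04 to 0.49 to the other 9 genes, and Actg2 was loosely tied, with r from 0.07 to 0.55. These values describe 8 libraries that differ in genotype, oxygen and depth at once, so they carry the genotype difference too.

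Outside the 10, the 5 genes most like Acta2 by Pearson's r over the 8 libraries were St5 (0.97), Rpp21, Fads3 and Boc (0.94, 0.94 and 0.93) and Slc1a6 (0.93). For Tagln they were Ube2e2 (0.98), Fchsd1 (0.97), Trim30a (0.97), Gpr1 (0.96) and Mustn1 (0.96). For Myl9 they were Dysf (0.96), Plcxd2 (0.96), Lcp1 (0.95), Msrb1 (0.95) and Slc25a13 (0.94). Boc is a Hedgehog co-receptor, Fads3 belongs to the fatty acid desaturases, Dysf (dysferlin) acts in membrane repair and Lcp1 (L-plastin) bundles actin. Slc1a6, a glutamate transporter gene, averaged 62.8 normalised reads in KO and 147 in WT, and Gpr1, a chemerin receptor gene, was at the floor of 1 in KO and averaged 11.3 in WT, both without passing the test (limma, adjusted p = 0.145 and 0.472).

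Genes of the circuit around the contractile genes were counted in the same way. None of the genes of 7 lists on it passed the test of KO against WT over both oxygen levels in either direction. Of 9 tested non-muscle actins, tropomyosins and myosins 4 were below 0, with a median log2 fold change of 0.01. Actb had 50027 ± 7715 normalised reads in KO and 49602 ± 5093 in WT, and Myh9, the main non-muscle myosin heavy chain, 15214 ± 1175 in KO and 14232.5 ± 3019 in WT (SD, n = 4 each). Tpm4 differed by -0.32 ± 0.19 and Myl12a by -0.29 ± 0.18 on the log2 scale. Among 11 tested paralogs and partners 9 were below 0 with a median of -0.13, and caldesmon (Cald1), Cnn2, Tagln2 and the pointed-end cap Tmod3 had -0.13 ± 0.27, -0.31 ± 0.19, -0.20 ± 0.21 and -0.12 ± 0.21 (SE). In normoxia 10 of these 11 were below 0 (52.3% of tested features were), with a median of -0.27. In hypoxia 6 of 11 were (51.0% of tested features), with a median of -0.01. KO normoxia replicate 1 was below replicate 2 for Cald1 (5727 and 9460) and Tmod3 (1915 and 2844). It was above replicate 2 for Cnn2 (7121 and 4677) and Tagln2 (4522 and 3379).

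Of 9 tested genes for SRF and its cofactors, 8 were above 0, with a median of 0.16. Srf itself had 809 ± 37.5 normalised reads in KO and 956 ± 289 in WT (log2 fold change -0.19 ± 0.21). Elk3, an SRF partner of the ternary complex family, had 906 ± 186 in KO and 808 ± 79.1 in WT, and its relative Elk4 had 302.5 ± 112 in KO and 251 ± 57.1 in WT. The MRTF genes Mkl2 (307.5 ± 57.4 in KO, 225 ± 36.4 in WT) and Mkl1 (293 ± 34.9 in KO, 217 ± 43.0 in WT) were higher in KO by 0.44 ± 0.19 and 0.45 ± 0.19 on the log2 scale (SE; limma, adjusted p = 0.788 and 0.780), and Mkl1 is named after its value was seen. Neither passed.

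Other SRF and MRTF target genes were mixed. Of 18 tested genes 13 were below 0, with a median of -0.18. The counts differed between the 2 oxygen levels. In normoxia 16 of 18 were below 0 (52.3% of tested features were), with a median of -0.34. In hypoxia 8 of 18 were (51.0% of tested features), with a median of 0.06. KO normoxia replicate 1, which stood apart, weighs on the normoxia values. It was below replicate 2 for Thbs1 (11320 and 31318), Itgb1 (15236 and 22009) and Ctgf (7775 and 12365), and above it for Flna (52554 and 43796). List medians without this library were not computed. The filament cross-linker Flna differed by -0.05 ± 0.23, the matrix protein gene Thbs1 by -0.38 ± 0.36, the integrin subunit gene Itgb1 by -0.11 ± 0.21 and Ctgf by -0.59 ± 0.23 on the log2 scale (SE; limma, adjusted p = 0.742 for Ctgf). Ctgf, a matricellular growth factor gene, had 12669.5 ± 3553 normalised reads in KO and 18740.3 ± 3549.8 in WT. Zyx, which encodes the focal adhesion protein zyxin and is named after its value was seen, was the other way, 1718 ± 282 in KO and 1290.5 ± 187 in WT (0.41 ± 0.16, adjusted p = 0.742).

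Upstream, 8 of 11 tested genes of the RhoA pathway were below 0, with a median of -0.14. Rock2, a RhoA kinase gene, differed by -0.18 ± 0.28, the myosin phosphatase subunit gene Ppp1cb by -0.14 ± 0.19, Rhoc by -0.13 ± 0.19 and the actin-severing Cfl1 by -0.14 ± 0.19 on the log2 scale (SE). Of 13 tested TGF-beta ligands, receptors and Smads 10 were above 0, with a median of 0.14. The oxygen levels went opposite ways. In normoxia 9 of 13 were below 0 (52.3% of tested features were), with a median of -0.10. In hypoxia 2 of 13 were (51.0% of tested features), with a median of 0.32. Over both oxygen levels the values were as follows. Ltbp1, which tethers latent TGF-beta to the matrix, differed by 0.14 ± 0.20, Skil by 0.03 ± 0.26, Tgfbr2 by 0.44 ± 0.16 and Smad2 by -0.11 ± 0.16 (SE; limma, adjusted p = 0.699 for Tgfbr2).

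The remaining markers of activated fibroblasts were divided. Of 15 tested genes 11 were below 0, with a median of -0.15. Here too the counts differed between oxygen levels. In normoxia 14 of 15 were below 0 (52.3% of tested features were), with a median of -0.50. In hypoxia 6 of 15 were (51.0% of tested features), with a median of 0.06. KO normoxia replicate 1 was below replicate 2 for Fn1 (11176 and 26178), Lox (6565 and 14144) and Col1a1 (5157 and 6111). It was above replicate 2 for Sparc (22978 and 17301), Col1a2 (9812 and 7939) and Col3a1 (1986 and 1509). Medians without this library were not computed. Fn1, fibronectin, had 26152.5 ± 10751 normalised reads in KO and 26140.0 ± 6036 in WT, so its means were alike. Sparc differed by -0.30 ± 0.23 and Lox, which cross-links collagen, by -0.31 ± 0.28. The collagen I genes Col1a1 (0.12 ± 0.21) and Col1a2 (0.03 ± 0.19) lay near 0, and Col3a1 was at -0.75 ± 0.24 (SE; limma, adjusted p = 0.645). These last 3 genes are named after their values were seen.

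**Figure D5:**
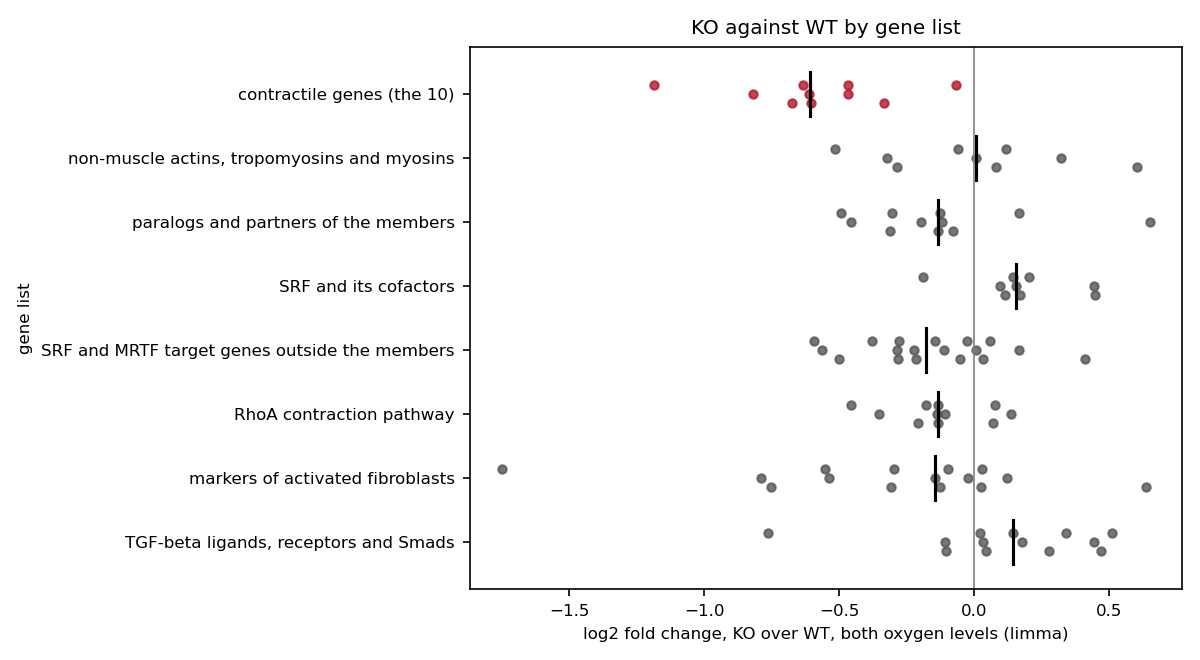
Log2 fold change of KO over WT across both oxygen levels for each tested gene of 8 lists (1 point a gene, spread vertically for visibility, black line the list's median). The 10 contractile genes (red) have a median of -0.61 and all lie left of 0, while the medians of the other 7 lists lie between -0.18 and 0.16. In normoxia alone, not drawn, the median was -0.50 for the activated fibroblast markers and -0.34 for the SRF and MRTF targets. These normoxia medians were not recomputed without KO normoxia replicate 1, which stood apart. No point passed the test over all features.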

How the data were processed

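RNA of 8 libraries was analysed (total RNA, miRNeasy kit, a New England Biolabs small RNA library set for SOLiD, per the labels' protocols). The deposited table holds 1 score per feature and library, the authors' normalised read counts rounded to whole numbers. How the values were normalised, and the aligner, counting program, strand setting and genome build, is not given in the sources used here. Rounding hides whole reads, so no count model was run, and depth was estimated from the spacing of low values (1 read is worth 0.6735 to 1.385). The deposited values were taken as log2(value + 1), which understates the changes of low genes. Features with at least 10 in at least 2 of 8 libraries were tested (12107 of 17091). limma 3.58.1 (R 4.3.3) fitted 4 group means to all 8 libraries with a mean-variance trend, and 7 contrasts gave two-sided p-values with Benjamini-Hochberg adjustment over every tested feature (threshold 0.05, 10.2 degrees of freedom). The script was tested on simulated data. The members and gene lists were chosen with earlier results of these data known. Genes named are the 10 members, the 5 features nearest to Acta2, Tagln and Myl9, and per list those past the threshold or the 4 with the highest mean. A gene that this rule also names is not reported here. Alternatives were other pseudocounts, filters, scaling, a replicate block, each library left out, and removal of a length trend. The number of unused sample columns was 0.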

Additional observations from a re-analysis of the deposited data

How the results depend on the processing

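In all 7 comparisons 0 of the 10 contractile genes passed the test under any of the 15 alternatives. Of 150 recomputed log2 fold changes of KO over WT across both oxygen levels, 150 kept their direction. Many of these could not have reversed, since the filters and the replicate block leave the estimates unchanged. Acta2 ran from -0.71 to -0.52, Actg2 from -0.77 to -0.17, Lmod1 from -0.96 to -0.68 and Myh11 from -1.83 to -0.55. The genes with all KO libraries below all WT libraries were 6 to 8, the 8 without the pair of libraries that stood apart. Leaving libraries out cannot lower this count, for these genes or for any feature. The share of all features is not given for these settings, so the range adds nothing to the 6 reported. Those lower in KO at an unadjusted p under 0.05 (limma) were 7 as reported, 2 to 7 when 1 library was left out, and 4 with no filter on low values. The labels give groups the same replicate numbers but do not say that the numbers pair the libraries, and the main fit did not pair them. Deviations of same-numbered libraries correlated at 0.57 between WT hypoxia and WT normoxia and at 0.23 between KO hypoxia and KO normoxia. Between genotypes they correlated at -0.11 to 0.11. Same-numbered libraries of a genotype may therefore be linked, most of all in WT, and the 4 libraries of a genotype may not be independent. With the replicate block, which is common to both genotypes, 7 were lower in KO at an unadjusted p under 0.05 (limma), and 0 of 10 passed.

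Reversals came among values near 0 or resting on 1 library, and the cause was not tested. With the length trend removed, WT hypoxia over normoxia became -0.078 for Acta2 and -0.20 for Myl9, and KO over WT in hypoxia 0.053 for Acta1. Without both libraries that stood apart, hypoxia over normoxia became -0.11 for Actg2 and -0.28 for Myh11 in KO, and 0.15 for Acta1 and 0.36 for Actg2 in WT. Median-of-ratios rescaling gave 0.0019 for Tpm1, KO over WT in normoxia. With 1 library left out, hypoxia over normoxia in KO ran from -0.12 to 0.15 for Acta2, -0.11 to 0.19 for Actg2, -0.072 to 0.21 for Tagln, -0.015 to 0.42 for Cnn1, -0.036 to 0.21 for Tpm2 and -0.28 to 1.06 for Myh11. In WT it ran from -0.17 to 0.21 for Acta2, -0.48 to 0.29 for Acta1, -0.85 to 0.36 for Actg2, -0.13 to 0.52 for Tagln, -0.26 to 0.36 for Myl9, -0.13 to 0.45 for Cnn1, -0.23 to 0.27 for Lmod1 and -2.50 to 0.057 for Myh11. KO over WT ran from -0.10 to 0.090 for Tpm1 in normoxia, and in hypoxia from -0.37 to 0.12 for Acta1 and -0.93 to 0.28 for Actg2. Where 1 library was left out, the lone library of its group was assumed to vary like the other groups.

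The count of all features called ran from 0 to 30 for KO against WT (3 as reported), 4 to 758 for hypoxia in KO (7), and 1 to 28 for hypoxia in WT (13). It ran from 12 to 56 for hypoxia over both genotypes (44), 0 to 19 for KO against WT in normoxia (0), 0 to 14 in hypoxia (0) and 0 to 29 for the difference of responses (0). Depth limits Myh11 most, whose lowest value rests on about 19 reads.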
